A study of Mus musculus with 6 samples.

Results

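The nuclear genes for the respiratory chain and ATP synthase were examined in 3 mouse spleen cell populations. The members were all genes whose symbol in the array's probe annotation starts with Nduf, Sdh, Uqcr, Cox4 to Cox8 or Atp5, which gave 91 of 19057 named genes. They fall into 44 genes of complex I (Nduf), 8 of complex II (Sdh), 7 of complex III (Uqcr), 16 of complex IV (Cox) and 16 of complex V (Atp5). Besides subunits, these names take in 12 assembly factors (8 Ndufaf and 4 Sdhaf genes) and Ndufs5-ps, a pseudogene by its symbol. The arrays held total RNA of macrophages from the spleen and of its conventional dendritic cells (cDC), split into a CD8+ and a CD8- group. All came from strain C57/B6, with replicates 1 and 2 per population and 6 arrays in all. No treatment is named, and neither the mice's age or sex nor the isolation of the cells is described. The labels do not say whether replicates came from separate mice or sorts, so p-values cover just the spread among these arrays, which may be technical.

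The chain passes electrons from NADH (complex I) or succinate (complex II) through ubiquinone, complex III and cytochrome c to oxygen at complex IV, and the proton gradient this builds drives ATP synthase, complex V. Most subunits are encoded in the nucleus and joined with a few made inside mitochondria, with the help of assembly factors that leave the finished complex. Resting dendritic cells and tissue macrophages both use oxidative phosphorylation, and both can shift towards glycolysis on activation.

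Values are log2 signals, and differences are log2 differences with a standard error (SE). Each mean rests on n = 2 arrays. A level of 5.25 log2, the 99th percentile of probes for olfactory and other sensory receptors and keratin-associated proteins, served as background. The arrays had 15802 to 15827 of 45281 probes above it, and replicates correlated at r = 0.963 to 0.973 across probes. Cell labels were checked against marker genes. Macrophage markers were higher in macrophages than in cDC for 10 of 10, and cDC markers were lower for 7 of 8. Between the cDC groups, 2 of 8 CD8+ cDC markers were called higher in CD8+ cDC and 4 of 7 CD8- cDC markers were called lower there. Summed linear signal of the cDC markers was 3417 on macrophage replicate 1 and 1256 on replicate 2, against 15455 to 21724 on cDC arrays. That of the macrophage markers was 113656 and 122411 on the macrophage arrays. On replicates 1 and 2 it was 2232 and 7387 in CD8+ cDC, and 10240 and 6472 in CD8- cDC. Erythroid markers summed to 20421 and 25598 on the macrophage arrays against 8187 to 15928 on cDC arrays, with 2 of 5 called higher. Of 5 platelet and 5 plasma cell markers, 2 each were higher in macrophages, and of 6 neutrophil, 3 B cell, 4 T cell and 5 plasmacytoid dendritic cell markers 0 were called. The part of other cells in the differences below was not tested, and in such bulk samples fewer cells of a type cannot be told apart from less RNA per cell.

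Most members were bright, and most differed little between populations. The mean over 6 arrays lay above background for 83 of 91 members, and 82 were above it on every array. The 8 others were the tissue isoforms Cox4i2, Cox7b2, Cox8b and Cox8c, the assembly factor Ndufaf6, and Ndufs1, Sdha and Uqcrfs1, which encode essential subunits. Such a probe gives a bound on its own signal, and whether it reports its gene's transcript was not tested. The only Sdha and Ndufs1 probes, and both Uqcrfs1 probes, were in this state.

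Between macrophages and the mean of both cDC groups, 12 members were lower in macrophages and 1 was higher. The single higher gene was Sdhc of complex II, and the lower genes came from every complex. A gene was called at an adjusted p under 0.05 in limma, and by this rule 15.4% of all genes differed, 8.22% higher and 7.21% lower. The 13 called members were 14.3% of the 91, with 1.1% higher and 13.2% lower. Members and all genes differ in how many are measured, since only 8927 of the 19057 genes have a mean above background. Of those 8927, 30.6% were called, 15.8% higher and 14.8% lower, against 15.7% of the 83 members above background, 1.2% higher and 14.5% lower. On that base the lower share was near that of other genes and the higher share was below it. A gene can pass the background level through the population where it is high, so these shares are descriptions only. Of all members 62 had a difference below 0 (68.1%, against 50.4% of all genes), and the median was -0.13, with that of all genes near 0. The macrophage arrays lay below all 4 cDC arrays in 27 members (29.7%, against 16.2% of all genes) and above them in 8 (8.79%, against 16.8%). Among genes above background these shares were 26.2% below, against 32.5% of the 83 members, and 24.8% above, against 7.23%.

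The differences were mostly small in size. They were under 0.5 in 72 of 91 members, a share near that of all genes (14251 of 19057). Among those above background it was 64 of 83 members (77.1%, against 51.4% of genes). A size of at least 1, a doubling or halving, was reached by 7 of 91 members (7.69%, against 12.4% of all genes and 25.3% of genes above background). The 95% interval of the difference lay within 1 of 0 for 69 members (75.8%, against 73.9% of all genes). These intervals are for single genes and are not adjusted for the number of genes. The other members could have differed by more than that.

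**Figure D1:**
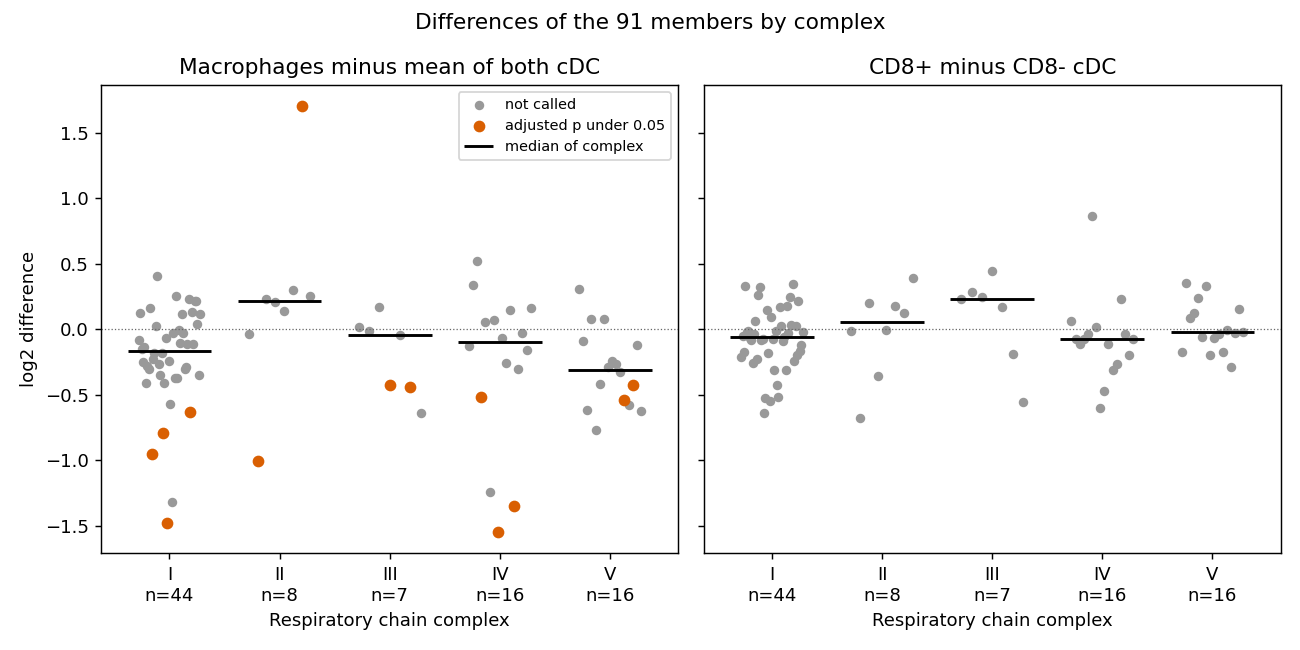
Log2 differences of the 91 members by complex, for macrophages less the average of the cDC groups (left) and for CD8+ minus CD8- cDC (right); each point is a gene, orange points have an adjusted p under 0.05, and bars are medians. Complex V has the lowest median on the left (-0.31) and complex II the highest (0.22), and 0 members are called on the right.

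By complex, the median difference between macrophages and cDC was -0.17 for complex I, 0.22 for complex II, -0.04 for complex III, -0.09 for complex IV and -0.31 for complex V. Called members numbered 4 of 44 in complex I, 2 of 8 in complex II, 2 of 7 in complex III, 3 of 16 in complex IV and 2 of 16 in complex V, and all but Sdhc were lower. The share called was 15.4% over all genes and 30.6% over genes above background. To compare arrays, each member's deviation from its own 6-array mean was taken and the median over a complex was found. For complex V this was -0.22 and -0.19 on the macrophage arrays, 0.12 and 0.11 on the CD8+ cDC arrays, and 0.17 and -0.09 on the CD8- cDC arrays. Macrophages were the lower side on both arrays; the CD8- cDC replicates also differed from each other. Complex II lay at 0.13 and 0.12 in macrophages, at 0.06 and -0.18 in CD8+ cDC, and at 0.06 and -0.22 in CD8- cDC. The cDC replicates were further apart than the populations in that complex. Complex IV stayed between -0.04 and 0.12 on all 6 arrays.

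**Figure D2:**
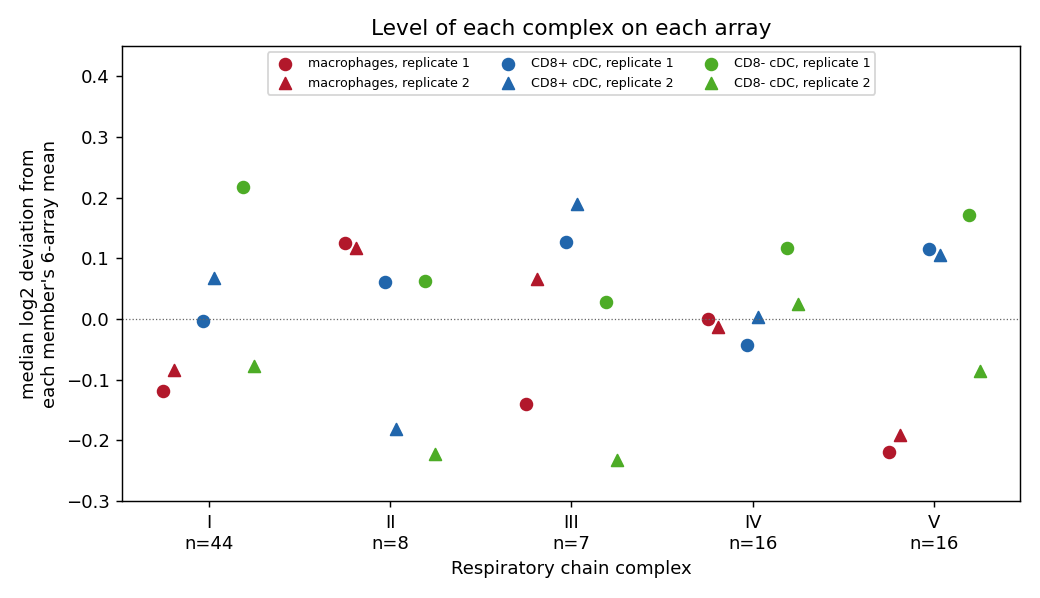
Median log2 deviation of the members of each complex from their own 6-array means, on each array; colours are populations, circles replicate 1 and triangles replicate 2. Both macrophage arrays are lowest in complex V, and CD8- cDC replicates 1 and 2 differ by more than the population means do in complexes I and II.

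Promoter sequences of the called members are shown here because many respiratory chain promoters carry sites for a few shared transcription factors. Binding of such factors, or a part of theirs in the differences, was not tested. RefSeq windows of assembly GRCm38.p6, from 250 bases before to 50 after the start, were at hand for 76 of 91 members and 10 of the 13 called. Short cores of 3 motifs were searched on both strands. They were GCATGCGC for NRF1, a regulator of nuclear genes for mitochondria, CCGGAAG for ETS factors such as GABPA, and AAGATGGC for YY1. The NRF1 core was in 14.8% of the members' 81 windows against 2.71% of all 32851 windows, the ETS core in 25.9% against 8.86%, and the YY1 core in 13.6% against 2.75%. Any of them was in 45.7% against 13.3%. The ETS and YY1 cores overlapped each other in 1 window of all, and the NRF1 core overlapped neither. Of the 10 called members with a window, 6 held a core (60%, against 45.7% of the members' windows). Sdhc, Uqcrc2 and Atp5mpl had no window, so all 10 belong to genes lower in macrophages. The windows of Ndufaf4 (chr4:24897833-24898132, plus strand), Sdhaf1 (chr7:30322326-30322625, minus strand) and Ndufs4 (chr13:114388045-114388344, minus strand) show the NRF1, ETS and YY1 cores in turn, in capitals. That of Cox7a2l (chr17:83514284-83514583, minus strand), the complex IV gene with the largest called fall above background on every array, holds none of these letters. Sequences run 5′ to 3′ along the gene's strand.
Ndufaf4: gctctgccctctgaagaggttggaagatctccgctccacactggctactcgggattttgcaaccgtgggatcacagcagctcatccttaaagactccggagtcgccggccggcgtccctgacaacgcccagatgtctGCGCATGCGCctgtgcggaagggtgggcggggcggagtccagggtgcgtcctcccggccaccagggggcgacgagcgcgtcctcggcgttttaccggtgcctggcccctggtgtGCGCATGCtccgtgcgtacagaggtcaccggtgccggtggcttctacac
Sdhaf1: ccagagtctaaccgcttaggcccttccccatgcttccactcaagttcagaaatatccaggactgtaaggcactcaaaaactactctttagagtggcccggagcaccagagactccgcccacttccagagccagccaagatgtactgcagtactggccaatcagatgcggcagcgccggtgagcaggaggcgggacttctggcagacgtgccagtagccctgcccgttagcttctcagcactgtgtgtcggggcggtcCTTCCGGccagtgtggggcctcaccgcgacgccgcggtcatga
Ndufs4: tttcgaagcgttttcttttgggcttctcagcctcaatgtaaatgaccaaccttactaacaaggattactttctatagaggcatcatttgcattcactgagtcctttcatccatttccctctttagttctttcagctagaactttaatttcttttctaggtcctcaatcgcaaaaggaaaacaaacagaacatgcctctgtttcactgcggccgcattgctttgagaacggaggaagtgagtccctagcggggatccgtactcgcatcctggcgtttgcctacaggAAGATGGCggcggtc
Cox7a2l: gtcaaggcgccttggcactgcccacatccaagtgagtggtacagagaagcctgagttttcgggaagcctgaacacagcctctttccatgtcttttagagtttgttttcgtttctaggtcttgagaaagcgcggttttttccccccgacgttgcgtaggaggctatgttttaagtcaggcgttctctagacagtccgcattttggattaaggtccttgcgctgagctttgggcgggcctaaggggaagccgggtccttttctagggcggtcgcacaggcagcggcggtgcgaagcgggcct

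In complex I, 4 of 44 members were lower in macrophages and 0 higher. They were the accessory subunits Ndufa6 and Ndufs4 and the assembly factors Ndufaf4 and Ndufaf7. Ndufa6, a small matrix-arm subunit that binds the mitochondrial acyl carrier protein, read 11.23 and 11.30 in macrophages, 11.999 and 12.41 in CD8+ cDC, and 12.40 and 12.08 in CD8- cDC. Both macrophage arrays lay below all cDC arrays, and the cDC groups overlapped. The difference was -0.96 (SE 0.16, 1.94-fold, adjusted p = 0.0264). Ndufa6 was also lower against each cDC group alone, by -0.94 against CD8+ cDC (adjusted p = 0.0491, and 0.0741 with the replicate number as a block) and by -0.97 against CD8- cDC (adjusted p = 0.0421, and 0.0657 with the block).

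Ndufs4, an accessory subunit of the NADH-oxidising module whose loss causes a Leigh-like brain disease in mice, read 11.20 and 11.02 in macrophages, 11.88 and 11.96 in CD8+ cDC, and 11.60 and 11.54 in CD8- cDC. The 3 populations did not overlap, with CD8+ cDC highest. It differed by -0.63 (SE 0.09, adjusted p = 0.0154), a call that rests on the brightest of 4 probes. The other Ndufs4 probes, all above background, gave -0.37, 0.07 and -0.47 and were not called (adjusted p from 0.0964 to 0.951), and the mean of the probes gave -0.35 (adjusted p = 0.333).

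Ndufaf4, an assembly factor of the early complex I intermediates, read 8.22 and 7.85 in macrophages, 8.55 and 8.58 in CD8+ cDC, and 9.05 and 9.13 in CD8- cDC. The populations rose in that order without overlap. Its difference was -0.79 (SE 0.12, adjusted p = 0.0212), and a second probe gave -0.78 (adjusted p = 0.0341). Ndufaf7, a methyltransferase that acts in complex I assembly, read 7.02 and 6.09 in macrophages, 7.60 and 7.92 in CD8+ cDC, and 8.22 and 8.40 in CD8- cDC. It had the same order as Ndufaf4, with macrophage replicate 1 nearer to cDC than replicate 2 was. The difference was -1.48 (SE 0.29, adjusted p = 0.039, or 0.0581 with the block). It was -1.95 without macrophage replicate 1 and -1.02 without replicate 2. The mean of all Ndufaf7 probes gave only -0.50 and was not called (adjusted p = 0.052). The array nearer to cDC is also the macrophage array with the more cDC marker signal, 3417 against 1256. It also had more summed signal of neutrophil markers (2068 against 306), T cell markers (681 against 127) and B cell markers (1702 against 1168). The part of these cells was not tested.

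Grouped by role, all 8 assembly factors of complex I had differences below 0, against 68.1% of all members and 50.4% of all genes. Only 7 of the 8 had a mean above background, and the sign for Ndufaf6, at background, says little. The differences ran from -1.48 to -0.07 with a median of -0.31, and 2 passed the test, as did 15.4% of all genes. Outside the Nduf names, only 3 of 7 complex I assembly genes had differences below 0, with a median of 0.009. The 29 accessory subunits had a median of -0.15, with 2 lower and 0 higher. Among the 6 core subunits, which carry the flavin and iron-sulfur centres, 0 were called and the median was 0.13. Of these, Ndufv1, the NADH-binding flavoprotein, was nearly level at 0.04 (95% interval -0.17 to 0.26). The membrane-arm subunit Ndufb11 had a large but uncertain difference. It read 6.13 and 5.47 in macrophages, 7.49 and 6.44 in CD8+ cDC, and 7.57 and 6.99 in CD8- cDC, a difference of -1.32 (adjusted p = 0.117, and 0.0119 with the block). Replicate 1 was above replicate 2 in all 3 populations. Ndufa4, which is named for complex I but is a subunit of complex IV, gave -0.30 (adjusted p = 0.0665).

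In complex II, 1 of 4 subunits was higher in macrophages and 1 of 4 assembly factors lower. Sdhc, the larger membrane anchor that helps to hold haem and ubiquinone, read 10.77 and 11.13 in macrophages, 9.004 and 9.62 in CD8+ cDC, and 9.13 and 9.24 in CD8- cDC. The macrophage arrays stood above all cDC arrays, and the cDC groups overlapped. The difference was 1.71 (SE 0.21, 3.26-fold, adjusted p = 0.0116), and it was called against CD8+ cDC (1.64, adjusted p = 0.0228) and against CD8- cDC (1.77, adjusted p = 0.018) as well. Against the mean of both cDC groups, it was 1.52 without macrophage replicate 2 and no longer called. In that contrast it kept its call when any other array was left out. The calls against each cDC group alone were lost without some cDC arrays as well. The second Sdhc probe was at background.

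The partner subunits did not pass the test. Sdhb, the iron-sulfur subunit, gave 0.30 (95% interval 0.03 to 0.58, adjusted p = 0.182), with macrophages at 10.51 ± 0.15, CD8+ cDC at 10.30 ± 0.13 and CD8- cDC at 10.12 ± 0.09 (SD). Sdhd, the other anchor, gave 0.25 with a wide 95% interval of -0.69 to 1.20. Whether Sdhc differed from these subunits in its change was not tested. Sdhaf1, which helps to insert the iron-sulfur clusters of Sdhb, was lower in macrophages. It read 9.23 and 9.22 in macrophages, 10.23 and 9.56 in CD8+ cDC, and 10.67 and 10.47 in CD8- cDC, so the populations rose in that order without overlap. The difference was -1.01 (SE 0.21, adjusted p = 0.0453), and a second probe gave -1.13 (adjusted p = 0.00531). Sdhaf2, which supports the attachment of flavin to Sdha, gave 0.23, Sdhaf3 0.21 and Sdhaf4 0.14, and 0 of these 3 were called.

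**Figure D3:**
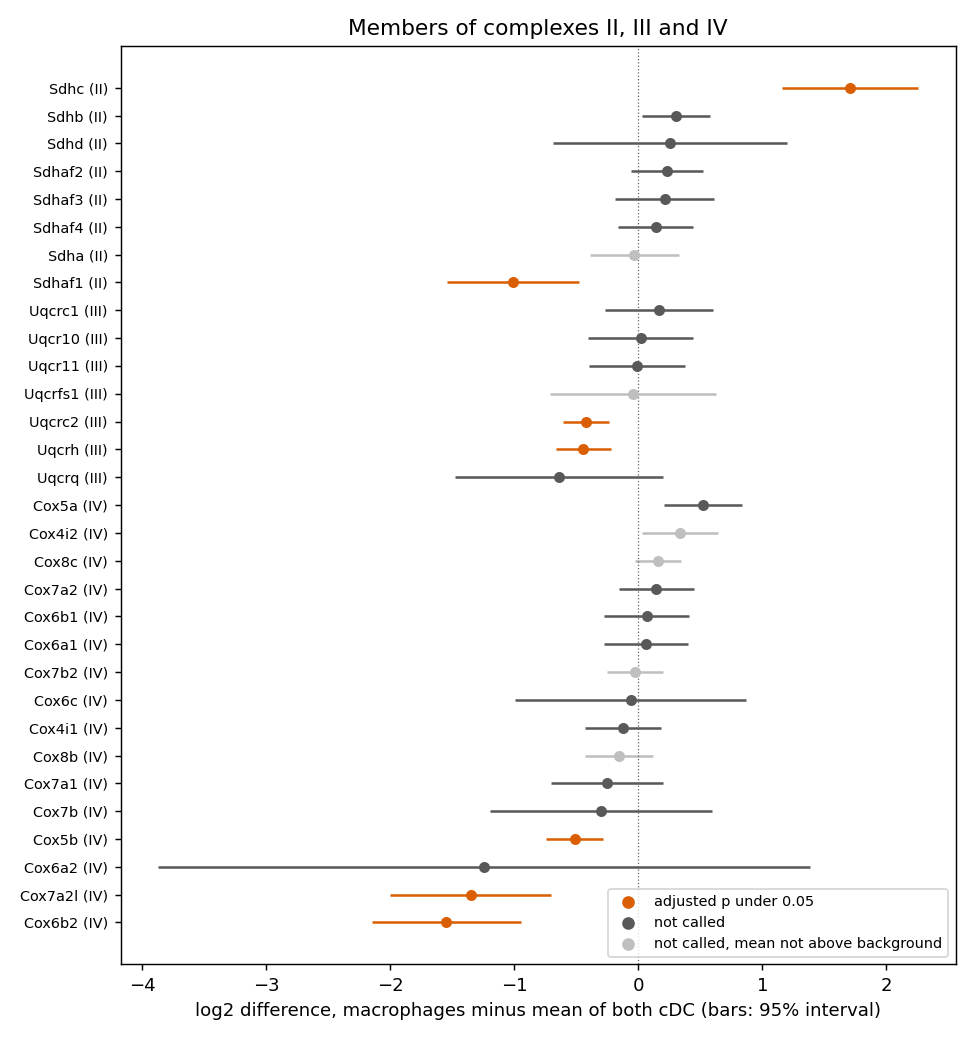
Log2 difference between macrophages and the mean of both cDC groups for every member of complexes II, III and IV, with unadjusted 95% intervals; orange marks an adjusted p under 0.05, and light grey a mean not above background. Sdhc stands alone on the right at 1.71, and Cox6b2, Cox7a2l and Sdhaf1 are the called genes furthest to the left.

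In complex III, Uqcrc2 and Uqcrh were lower in macrophages and 5 members were not called. Uqcrc2, a large matrix-facing core protein, read 11.89 and 11.80 in macrophages, 12.49 and 12.49 in CD8+ cDC, and 12.03 and 12.06 in CD8- cDC. CD8+ cDC stood above both other populations. Against the mean of both cDC groups it differed by -0.42 (SE 0.07, adjusted p = 0.0262), a call lost with probes above background alone in the fit (adjusted p = 0.105) and with an intensity trend (adjusted p = 0.0718). Against CD8+ cDC it differed by -0.65 (adjusted p = 0.0151, or 0.0522 with probes above background alone) and against CD8- cDC by -0.20 (adjusted p = 0.274). Uqcrh, the acidic hinge protein that contacts cytochrome c1, read 12.77 and 12.74 in macrophages, 13.18 and 13.03 in CD8+ cDC, and 13.36 and 13.23 in CD8- cDC. Its difference was -0.44 (SE 0.09, adjusted p = 0.0385, or 0.0978 with probes above background alone). Uqcrc1, the other core protein, gave 0.17 (95% interval -0.27 to 0.60), and the small subunit Uqcrq -0.64 (95% interval -1.47 to 0.20).

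In complex IV, Cox7a2l, Cox6b2 and Cox5b were lower in macrophages. Cox7a2l is known for a part in joining complexes III and IV into supercomplexes, and its function in this strain was not examined. It read 11.40 and 10.56 in macrophages, 12.27 and 12.13 in CD8+ cDC, and 12.55 and 12.38 in CD8- cDC. All macrophage values lay below all cDC values, and macrophage replicate 1 was the nearer to cDC. The difference was -1.35 (SE 0.25, 2.55-fold, adjusted p = 0.0344). It was -1.77 without macrophage replicate 1 and -0.93 without replicate 2, called in both cases. Leaving out any cDC array ended the call (adjusted p from 0.0945 to 0.107).

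Cox6b2, the isoform known from testis, read 5.26 and 4.54 in macrophages, 6.09 and 6.20 in CD8+ cDC, and 6.92 and 6.57 in CD8- cDC. Only 1 of the 2 macrophage arrays was above background, so the fold was at least 2.28 with the dim array counted at background (adjusted p = 0.0199). Its second probe was at background, and the mean of both probes gave -0.76 (adjusted p = 0.0642). Cox5b, which binds zinc on the matrix side, read 12.33 and 12.39 in macrophages, 12.79 and 12.89 in CD8+ cDC, and 13.001 and 12.82 in CD8- cDC. Its difference was -0.51 (SE 0.09, adjusted p = 0.0281), with a second probe at -0.90 (adjusted p = 0.0208). With probes above background alone in the fit, the brightest Cox5b probe was not called (adjusted p = 0.0645). Cox5a, picked out after its values were seen because it is the partner of Cox5b by name, went the other way without passing the test (0.52, adjusted p = 0.0646).

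The 9 widely expressed members of complex IV ran from -1.35 to 0.52, with Cox5b and Cox7a2l lower and 6 within 0.5 of 0. The widely expressed partners of tissue isoforms were not called. Cox4i1 gave -0.13 (95% interval -0.43 to 0.18), Cox6a1 0.06 (-0.28 to 0.40), Cox6b1 0.07 (-0.27 to 0.41) and Cox7a2 0.15 (-0.15 to 0.45). Cox7b, the partner of Cox7b2 and added after its values were seen, gave -0.30 with a wider interval (-1.19 to 0.59). Of the heart and muscle isoforms, Cox7a1 read 5.58 ± 0.38, 5.78 ± 0.10 and 5.89 ± 0.14 (SD) in macrophages, CD8+ cDC and CD8- cDC, just above background. Cox6a2 was clearly above background but uneven between replicates. It read 8.39 and 6.19 in macrophages, 10.41 and 7.52 in CD8+ cDC, and 8.03 and 8.17 in CD8- cDC, so that its difference of -1.24 had a 95% interval of -3.87 to 1.38. Replicates of 1 population differed by more than the populations did. Siglech, a plasmacytoid dendritic cell marker, was uneven on the same arrays, at 9.05 and 7.68 in macrophages, 11.42 and 9.05 in CD8+ cDC, and 9.20 and 9.34 in CD8- cDC. The summed signal of the 5 plasmacytoid dendritic cell markers was 7955 and 3418 on the CD8+ cDC arrays and 2415 to 3340 on the others. Their part in the Cox6a2 values was not tested.

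In complex V, 13 of 16 members had differences below 0, against 68.1% of all members and 50.4% of all genes, and Atp5l and Atp5mpl passed the test. Atp5l, subunit g at the membrane face where synthase dimers form, read 12.68 and 12.95 in macrophages, 13.31 and 13.39 in CD8+ cDC, and 13.35 and 13.36 in CD8- cDC. The difference was -0.54 (SE 0.10, adjusted p = 0.0384, or 0.0613 with probes above background alone). Atp5mpl, a small proteolipid of the membrane part, read 12.76 and 12.68 in macrophages, 13.08 and 13.19 in CD8+ cDC, and 13.21 and 13.12 in CD8- cDC. Its difference was -0.43 (SE 0.08, adjusted p = 0.0358, or 0.0613 with the block and 0.106 with probes above background alone). The mean of all Atp5mpl probes gave -0.30 and was not called (adjusted p = 0.0582). In both genes the macrophage arrays lay below all cDC arrays and the cDC groups overlapped.

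The catalytic head of ATP synthase showed no called gene among 5. Atp5b, the catalytic beta subunit, gave -0.09 (95% interval -0.30 to 0.13) and Atp5a1, the alpha subunit, 0.31 (-0.27 to 0.90). Atp5c1, the rotating gamma subunit, gave -0.62 (adjusted p = 0.0848) and Atp5e -0.77 (adjusted p = 0.247). The 11 members of the membrane part and stalks had a median of -0.32, with 2 lower. Of the c-ring genes, Atp5g2 gave -0.41 (adjusted p = 0.287) and Atp5g3 0.08 (adjusted p = 0.67). The stalk subunit Atp5pb gave -0.62 (adjusted p = 0.186, and 0.0445 with the block) on its brightest probe. Its other 3 probes above background were not alike. The second brightest read 10.19 and 9.81 in macrophages, 11.29 and 11.34 in CD8+ cDC, and 11.21 and 11.01 in CD8- cDC, a called difference of -1.21 (adjusted p = 0.00892). A dim probe was also called (-1.10, adjusted p = 0.00876) and the remaining one was not (adjusted p = 0.998), while the mean of all 4 passed (-0.73, adjusted p = 0.0424). Second probes were called lower in Atp5j (-0.88, adjusted p = 0.0101) and Atp5o (-1.20, adjusted p = 0.0195) too, genes singled out after their values were seen, whose brightest probes were not called.

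**Figure D4:**
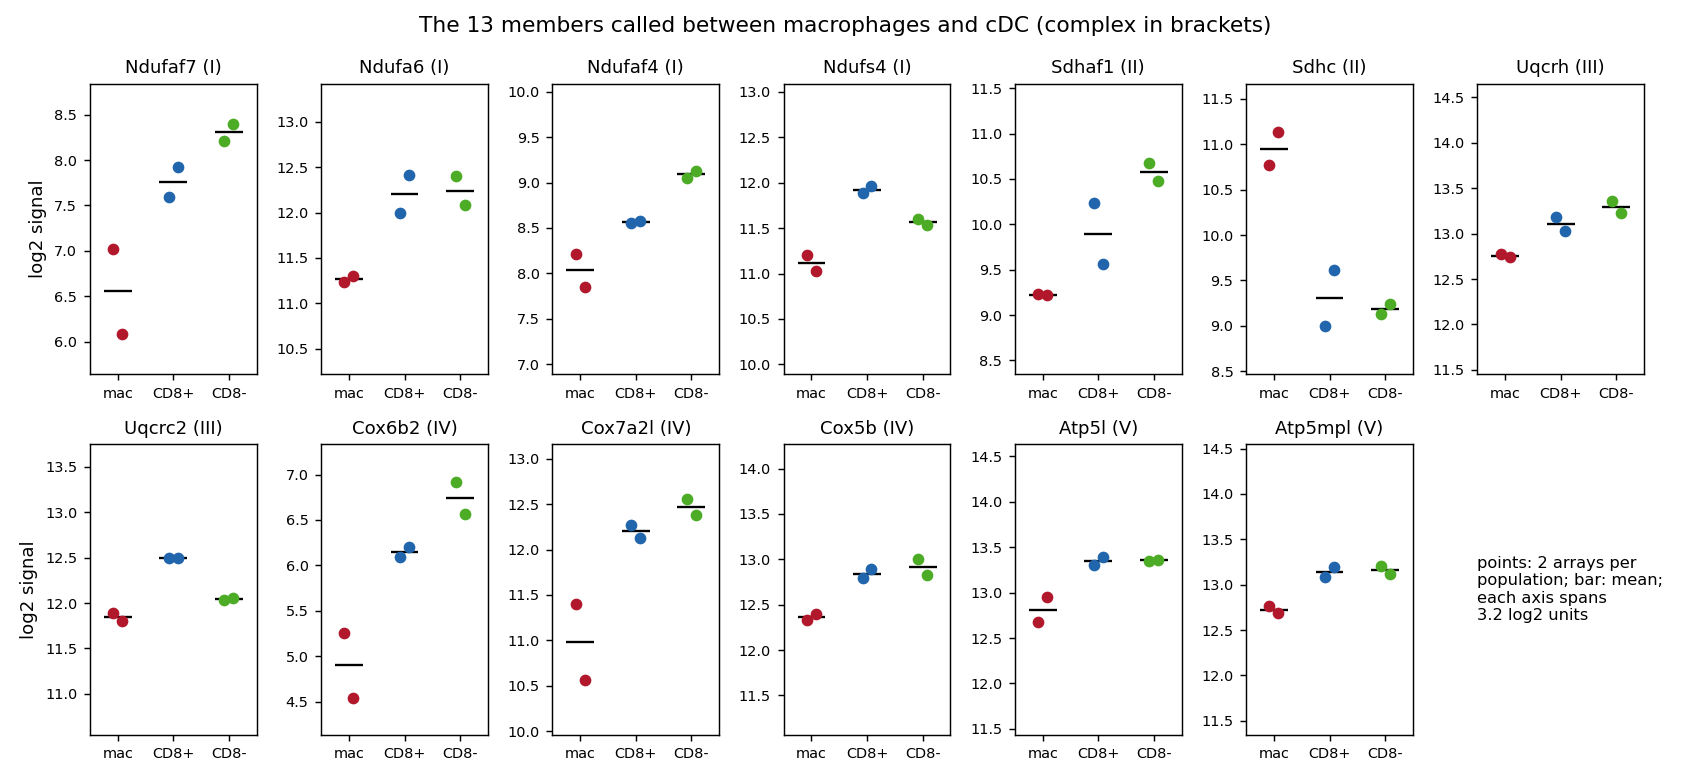
Log2 signal of the 13 members called between macrophages and cDC, 1 panel a gene, with 2 arrays per population as points and their mean as a bar; every vertical axis spans the same range but starts at its own level. Sdhc is the one gene with macrophages on top, and Ndufaf7, Cox6b2 and Cox7a2l show the widest gap between the macrophage arrays.

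Among the 13 called members, 12 lost the call when at least 1 cDC array was left out, and Sdhc kept it without each of the 4. Without macrophage replicate 1, Cox6b2, Cox7a2l, Ndufaf4, Ndufaf7, Ndufs4 and Sdhc were called, and without replicate 2, Atp5l and Cox7a2l. Sdhaf1 kept its call without either CD8+ cDC array, and Ndufa6 without CD8+ cDC replicate 1. Atp5mpl, Cox5b, Uqcrc2 and Uqcrh lost it whichever array was left out. Every one of these differences kept its sign.

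Against each cDC group alone, fewer members passed. Against CD8+ cDC 3 were lower and 1 higher, together 4.4% of members against 11.8% of all genes (6.55% higher and 5.25% lower) and 23.3% of genes above background. At an unadjusted p under 0.05 it was 22% against 26.1%, and a size of at least 1 was reached by 6.59% against 12.7%. The macrophage arrays lay below both CD8+ cDC arrays in 38 members (41.8%, against 25.1% of all genes) and above them in 16 (17.6%, against 25%), and the difference was below 0 in 60 (65.9%, against 49.7%). Among those above background, they lay below in 44.6% of members against 35.0% of genes, and above in 16.9% against 32.1%. Against CD8- cDC 8 were lower and 1 higher, together 9.89% against 13.1% of all genes (7.14% higher and 5.93% lower), and 26% of genes above background. At an unadjusted p under 0.05 it was 28.6% against 26.8%, and 7.69% against 13.3% reached a size of 1. The macrophage arrays lay below both CD8- cDC arrays in 34 members (37.4%, against 25.9%) and above them in 14 (15.4%, against 26.2%), and the difference was below 0 in 60 (65.9%, against 49.1%). Among those above background, they lay below in 39.8% of members, near the 36.3% of genes, and above in 13.3% against 33.4%. The comparisons share the macrophage arrays. Ndufa6 and Sdhc were called in both, Ndufs4 and Uqcrc2 only against CD8+ cDC, and Cox5b, Cox6b2, Cox7a2l, Ndufaf4, Ndufaf7, Sdhaf1 and Uqcrh only against CD8- cDC. With the replicate block this division changed. Against CD8+ cDC, Cox6b2 (-1.25, adjusted p = 0.0485), Cox7a2l (-1.22, adjusted p = 0.0464) and Ndufb11 (-1.16, adjusted p = 0.0238) were called as well, and Ndufa6 was not. Against CD8- cDC, Ndufb11 was called (-1.47, adjusted p = 0.0143), while Cox5b (adjusted p = 0.0664), Ndufaf7 (adjusted p = 0.0611) and Ndufa6 were not. A call in just one of them does not show that the cDC groups differ. Their own contrast is given next.

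Between CD8+ and CD8- cDC, 0 of 91 members were called in limma, where 2.04% of all genes were (1.29% higher and 0.756% lower in CD8+ cDC). Of genes above background 4.09% were. The arrays of the cDC groups did not overlap in 12 members higher in CD8+ cDC (13.2%, against 21.1% of all genes) and in 20 lower there (22%, against 21.4%). Among those above background, 13.3% of members were higher without overlap against 25.5% of genes, and 20.5% lower against 26.5%. The difference was below 0 in 58 (63.7%, against 50.1%). At an unadjusted p under 0.05 there were 8 members (8.79%, against 14.7% of all genes). They were Uqcrc2, Atp5g3, Atp5b and Ndufs4, higher in CD8+ cDC, and Ndufaf3, Ndufaf4, Ndufb3 and Sdhaf1, higher in CD8- cDC. Not a single member differed by 1 or more, against 5.34% of all genes and 10.9% of those above background, and 74 of 91 had a 95% interval within 1 of 0 (81.3%, against 78.1%). Medians were -0.06 for complex I, 0.06 for complex II, 0.23 for complex III, -0.07 for complex IV and -0.02 for complex V. The largest observed difference, 0.86 in Cox6a2, came with the uneven replicates described above.

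Several of these genes separated the cDC groups on every array, with sizes the test did not pass. Uqcrc2 differed by 0.45 (95% interval 0.24 to 0.66, adjusted p = 0.0979). Atp5b, at 13.88 and 13.90 in CD8+ cDC and 13.54 and 13.53 in CD8- cDC, differed by 0.35 (adjusted p = 0.246), and Atp5g3 by 0.33 (adjusted p = 0.177). On the other side, the assembly factor Ndufaf3 read 6.76 and 6.68 in CD8+ cDC and 7.55 and 7.18 in CD8- cDC, a difference of -0.64 (adjusted p = 0.177). Ndufaf4 differed by -0.53 (adjusted p = 0.233), and by -0.70 with the mean of its probes, which passed (adjusted p = 0.042). Sdhaf1 differed by -0.68 (adjusted p = 0.376).

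Arrays of all 3 populations stood apart without overlap, in the order macrophages, CD8+ cDC, CD8- cDC from low to high, in 7 members (7.69%, against 4.67% of all genes). These were Cox6b2, Cox7a2l, Ndufa4, Ndufaf4, Ndufaf7, Sdhaf1 and Uqcrh. With CD8+ cDC highest and macrophages lowest there were 2 (2.2%, against 3.54% of all genes), Ndufs4 and Uqcrc2. With macrophages highest, CD8- cDC were lowest in Ndufab1 and Sdhb (2.2%, against 4.04%) and CD8+ cDC were lowest in Cox4i2, Cox8c and Ndufs7 (3.3%, against 3.48%), of which Cox4i2 and Cox8c are at background. Macrophages lay between the cDC groups in Ndufaf3, with CD8- cDC highest (1.1%, against 1.29%), and in Atp5g3 and Ndufs1, with CD8+ cDC highest (2.2%, against 1.44%); Ndufs1 is at background. Ndufab1 and Ndufs7, outside the rule for naming, are listed only for this order.

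Other genes of the mitochondrial energy pathway were counted in the contrast of macrophages with cDC. Of 18 assembly factors of cytochrome c oxidase 0 were called, with a median of 0.04. Of 8 subunits encoded by mitochondrial DNA 0 were called, with a median of 0.22. Among 7 further genes of complex III and cytochrome c, Cycs, the soluble electron carrier itself, was lower (-0.70, adjusted p = 0.0296). Of 7 complex I assembly genes outside the Nduf names, Tmem126b was higher (0.53) and Acad9 lower (-0.62), with a median of 0.009. Of 4 factors of ATP synthase 0 were called in this contrast, but Atpif1, its inhibitor, was 0.95 higher in CD8+ than in CD8- cDC (adjusted p = 0.0348), at 13.94 and 13.79 in CD8+ cDC and 12.99 and 12.84 in CD8- cDC.

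Enzymes that feed the chain moved in both directions, as did genes above background at large (15.8% called higher and 14.8% lower). Of 17 genes of the tricarboxylic acid cycle and pyruvate dehydrogenase, 4 were higher and 4 lower in macrophages, with a median of 0.04. Ogdh of the oxoglutarate dehydrogenase complex was 1.09 higher and Pdha1 of pyruvate dehydrogenase 0.80 higher, and Dlat and Suclg2 were also higher. Fh1, fumarase, differed by -1.15, and citrate synthase Cs and Suclg1 were also lower. Mdh2, malate dehydrogenase, differed by -1.55. It read 10.38 and 9.61 in macrophages, 10.69 and 10.67 in CD8+ cDC, and 12.59 and 12.23 in CD8- cDC. Mdh2 was called lower against CD8- cDC (-2.42, adjusted p = 0.0116) but not against CD8+ cDC (-0.69, adjusted p = 0.28). Among 7 other donors of electrons to ubiquinone, 3 were higher and 0 lower. Sqor, which oxidises sulfide, was 3.67 higher in macrophages (adjusted p = 0.00103), at 9.17 and 9.02 against 5.31 to 5.68 on cDC arrays. Etfb, a subunit of the electron transfer flavoprotein of fat oxidation, was 1.92 higher. Prodh, proline dehydrogenase, was 0.81 higher than the mean of both cDC groups, but not called against CD8+ cDC (0.08, adjusted p = 0.883). Between the cDC groups, Prodh was called higher in CD8+ cDC (1.46, adjusted p = 0.0286).

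Of 11 coenzyme Q genes, those with Coq names, 2 were higher (Coq10a, 1.09, and Coq5, 0.64) and 1 lower (Coq2, -0.85). Of 11 genes for mitochondrial DNA upkeep, the polymerase Polg was higher (0.83). Among 10 regulators, the coactivator Ppargc1b was higher in macrophages, at 7.76 and 8.54 against cDC arrays that were all at background, a fold of at least 7.44 (adjusted p = 0.00276). Gabpb1, the partner of GABPA, was lower (-0.81, adjusted p = 0.00723). Of 6 genes for oxygen radical defence in mitochondria, 5 of them above background, 0 were called.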

How the data were processed

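The 6 deposited columns, 1 per array, hold log2 signals of 45281 probes. The labels do not state the log base, which was inferred from the range. The columns have nearly the same sorted values (largest gap 0.0349), as after quantile normalization by the authors, a step the labels do not state. BeadStudio and limma stand in the submitters' processing notes, with no version or role. A second table of scanner signals was not used, since its 12 columns match none of the labels. Arrays give no read depth, and their number limits the precision.

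Probes were named by the platform annotation (34885 with 1 symbol, 18 with several, 10378 with none). The brightest probe by mean over 6 arrays stood for a gene. The RefSeq gene table of GRCm38.p6 changed 0 member symbols. A limma 3.58.1 model (R 4.3.3; lmFit, then eBayes) held 1 mean for each population and ran over all probes (3 residual and 1.86 prior degrees of freedom), with Benjamini-Hochberg adjustment over them; every adjusted p is limma's and two-sided. Steps were tested on simulated data. Members and lists were chosen with earlier results of these data known. Named were called members, the 3 largest differences per complex and contrast, all of complex II, isoform pairs, core subunits, and called genes of the other lists; Atp5j, Atp5o, Cox5a, Cox7b and Ndufb3 were added after their values were seen. Background was set from 1597 probes.

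Replicate differences of probes above background correlated between groups at 0.421, 0.281 and 0.287, so numbers 1 and 2 may pair the arrays. A further model took the number as a block, and its adjusted p is given where it changed a call.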

Additional observations from a re-analysis of the deposited data

How the results depend on the processing

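With 2 arrays per group, the counts depended on every array. Leaving out 1 array, with the lone sample assumed to vary like the other groups, gave 1 to 6 called members between macrophages and both cDC groups instead of 13, 0 to 7 instead of 4 against CD8+ cDC, and 0 to 5 instead of 9 against CD8- cDC. The share of all genes called fell too, to between 7.2% and 12.3% in the first contrast. Such fits have 1 residual degree of freedom less. In that contrast, 1 to 3 members were called when a cDC array was left out, 6 without macrophage replicate 1 and 2 without macrophage replicate 2. Median differences without 1 array ranged, for complexes I to V in turn, over -0.26 to -0.11, 0.0934 to 0.29, -0.22 to 0.0723, -0.14 to -0.0414 and -0.45 to -0.24 between macrophages and cDC, and over -0.19 to 0.12, -0.0391 to 0.10, 0.0692 to 0.42, -0.13 to -0.0336 and -0.096 to 0.13 between CD8+ and CD8- cDC.

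Testing only probes above background gave 9 members in the first contrast, with Atp5l, Atp5mpl, Cox5b, Uqcrc2 and Uqcrh lost and Ndufb11 gained, and moved the medians of complexes III and IV to -0.22 and -0.19, with fewer genes in them. An intensity trend in the variance prior gave 16 there and 10 against CD8+ cDC, and averaging the probes of a gene gave 12 there and 1 (Ndufaf4) between the cDC groups. In the first contrast, averaging lost Atp5mpl, Cox6b2, Ndufaf7 and Ndufs4 and gained Atp5j, Atp5pb and Ndufa4. Centring the arrays changed 0 calls. With the replicate number as a block 13 were called, 11 of them shared, with Atp5mpl and Ndufaf7 lost and Atp5pb and Ndufb11 gained. The block gave 0 between the cDC groups, 6 against CD8+ cDC, where Cox6b2, Cox7a2l and Ndufb11 were gained and Ndufa6 lost, and 7 against CD8- cDC, where Cox5b, Ndufa6 and Ndufaf7 were lost and Ndufb11 gained. The lower background level raised the measured members from 83 to 84 and entered no other result. Scanner values were not run, for want of a match to the samples. No value of a named member that passed the test in either setting changed sign under these alternatives.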
